A study of Mus musculus with 25 samples.

Results

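The 10 genes described here encode matrix metalloproteinases and their tissue inhibitors: Mmp2, Mmp3, Mmp9, Mmp12, Mmp13, Mmp14, Mmp19, Timp1, Timp2 and Timp3. They were chosen by gene symbol among the 55450 genes of the deposited count table, and all 10 were among the 18031 genes with enough counts to be tested. Their transcripts were measured by bulk RNA sequencing in 25 tumours grown in C57BL/6 mice from B2905, also called M4, a mouse melanoma line, so all tumours descend from 1 line. Treatment was given to mice with tumours of 75 mm3 on average, as an antibody at 10 mg/kg. Tumours labelled controls (n = 5) received an isotype IgG2b antibody. The other tumours received anti-CTLA-4, directed at an inhibitory receptor of T cells, and were grouped by the outcome 10 to 11 days after the last dose. In that arm, 8 tumours that regressed are called responders, 6 that held their size are called stable, and 6 that progressed are called non-responders. The comparisons between outcomes ask which transcripts differed among tumours given the same antibody, and those with controls ask how each outcome differed from tumours given an antibody without that target.

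Matrix metalloproteinases are zinc-dependent enzymes that cut collagens, elastin, basement membrane proteins and many signalling proteins outside the cell. They are made as inactive proenzymes and are switched on by removal of a propeptide, which other proteases such as plasmin, furin or other metalloproteinases carry out. The TIMP proteins bind the active site and block it, and TIMP2 also helps MMP14 at the cell surface to activate the proenzyme of MMP2. In tumours, macrophages, neutrophils, fibroblasts, endothelial cells and the tumour cells themselves can all be sources. Transcript levels carry no information on activation of the proenzymes.

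Mmp3, Mmp12 and Mmp13 lie in the metalloproteinase gene cluster of chromosome 9, and their induction by inflammatory signals is classically linked to AP-1, the Fos and Jun family of transcription factors. The core AP-1 motif TGANTCA, which reads the same on both strands, was searched in the 250 bases before the RefSeq start sites of the members with a promoter sequence (GRCm38.p6). Such sequences were found for 7 members but not for Mmp2, Mmp9 or Mmp19, which were therefore not searched. The 3 members with a match are the chromosome 9 genes. The motif and its surroundings are shown because these genes had the largest log2 fold changes among the members for stable tumours over controls. All run 5′ to 3′ on the plus strand, and the capitals mark the motif.

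Mmp3, chr9:7445746-7445812: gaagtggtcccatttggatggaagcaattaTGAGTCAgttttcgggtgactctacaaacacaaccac
Mmp12, chr9:7347300-7347366: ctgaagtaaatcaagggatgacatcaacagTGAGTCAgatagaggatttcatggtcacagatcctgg
Mmp13, chr9:7272449-7272513: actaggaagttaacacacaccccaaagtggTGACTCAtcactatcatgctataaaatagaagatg

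The first base of the motif lay at position -46 from the start site of Mmp3, at -44 from the second of the 2 RefSeq start sites of Mmp12 and at -35 from that of Mmp13. The Mmp3 and Mmp13 stretches are intergenic, while the Mmp12 stretch lies in an intron of the longer Mmp12 transcripts, and no match was found before the first Mmp12 start site. No match was found in the windows of Mmp14, Timp1, Timp2 and Timp3. The motif was present in 6.75% of the 32851 promoter windows of this length and before at least 1 start site of 7.82% of the 27025 genes. A match is a description of the letters and not evidence of binding.

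Total counts ranged from 8.76 to 34.3 M per tumour. Protein-coding genes took 82.9 to 89.2% of counts in the 17 tumours other than responders, but 23.8 to 87.0% in responders, with responder 1 at 23.8%, responder 4 at 54.2% and responder 5 at 87.0%. The numbers that open the library names run by group, what they record is not stated, and any order they mark cannot be told apart from group. The tumours come from separate mice, and replicate numbers pair nothing. Transcripts of the melanocyte lineage (Mlana, Tyr, Tyrp1, Dct, Pmel, Sox10 and Mitf) were present in every group, with a median summed level of 12049 CPM (counts per M counts) in controls, 2375 CPM for the non-responders, 400 CPM for stable tumours and 373 CPM for responders. In bulk tissue, fewer cells of a type and less RNA per cell cannot be told apart.

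Levels between genes were compared per length, in reads per kilobase of transcript and M reads (RPKM). The read totals implied by these values followed the protein-coding counts and not all counts. Scaled to the median tumour, their ratio to protein-coding counts was 0.986 to 1.08. In controls, Timp3 had the highest mean level, 124 ± 9.03 RPKM (SD, n = 5). Timp2, at 71.3 ± 5.37 RPKM, and Mmp2, at 65.0 ± 7.01 RPKM, came next with overlapping ranges. Mmp14 followed at 44.5 ± 2.43 RPKM and Timp1 at 24.5 ± 6.97 RPKM, ranges that did not overlap, although the range of Timp1 reached that of Mmp3. Mmp3 (10.4 ± 6.43 RPKM), Mmp19 (6.02 ± 1.47 RPKM) and Mmp12 (3.95 ± 0.765 RPKM) lay lower, and the range of Mmp19 overlapped those of both others. Mmp9 (0.853 ± 0.441 RPKM) and Mmp13 (0.660 ± 0.329 RPKM) were the lowest and overlapped.

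The order of the mean protease levels differed in tumours held stable, where Mmp2 led the proteases at 125 ± 27.3 RPKM (SD, n = 6). Mmp3 followed at 84.9 ± 51.5, Mmp14 at 84.3 ± 8.48 and Mmp12 at 63.8 ± 23.5 RPKM, and the ranges of these genes overlapped. Mmp3 spanned 29.6 to 147 RPKM, and its median of 74.5 RPKM was below the 84.2 RPKM of Mmp14. In responders the corresponding means were 71.4 ± 18.9 RPKM for Mmp2, 63.8 ± 14.3 for Mmp14, 53.7 ± 29.4 for Mmp12 and 32.6 ± 31.9 for Mmp3 (SD, n = 8). Mmp12, the macrophage metalloelastase, made up 2.99 ± 0.451% of the summed protease RPKM of controls and 6.58 ± 8.84% of that of non-responders (2.99 ± 1.11% without non-responder 6, which held 24.5%), against 16.4 ± 3.79% of that of stable tumours and 21.3 ± 11.4% of that of responders. Mmp2 made up 49.4 ± 3.43% of that sum in controls and 29.1 ± 5.53% in responders. Timp3 remained the leading inhibitor in every group, with mean shares of the summed inhibitor RPKM between 56.4% and 63.8%.

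The summed RPKM of the 7 proteases divided by that of the 3 inhibitors was 0.598 ± 0.035 in controls and 0.631 ± 0.113 in non-responders, where no tumour exceeded 1. It was 1.16 ± 0.471 in stable tumours, with 3 of 6 tumours above 1, and 0.978 ± 0.280 in responders, with 2 of 8 above 1. The stable tumours lay far apart, with stable 2, 3 and 4 at 1.48, 1.67 and 1.61 and stable 1, 5 and 6 at 0.765, 0.682 and 0.764. Among responders, tumours 1 and 2 had the highest ratios, 1.23 and 1.56. These ratios sum transcripts and are not a measure of enzyme activity.

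**Figure D1:**
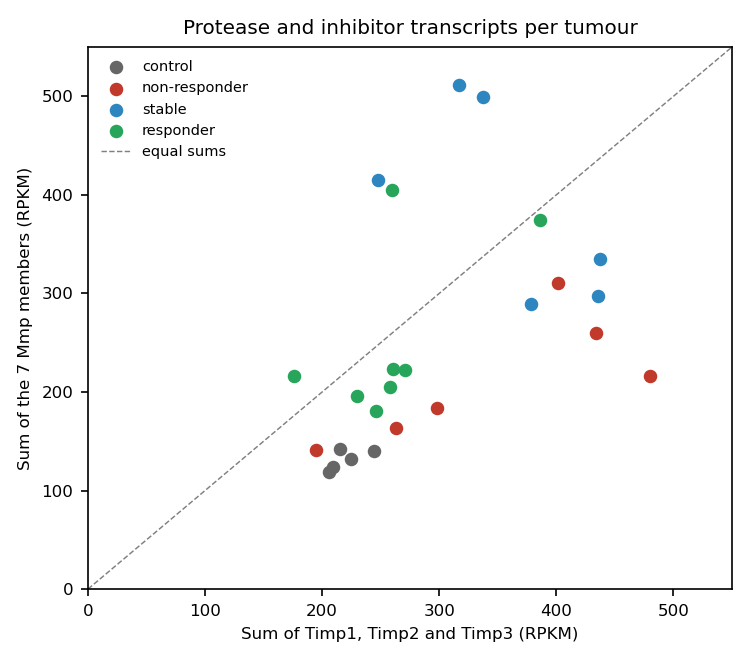
Summed RPKM of the 7 metalloproteinase members (vertical axis) against the summed RPKM of Timp1, Timp2 and Timp3 (horizontal axis), 1 point per tumour, coloured by group. The dashed line marks equal sums, and the 5 points above it are stable tumours 2, 3 and 4 and responders 1 and 2.

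Differences between groups were tested for all 18031 genes with edgeR's quasi-likelihood test, and genes with a Benjamini-Hochberg adjusted p under 0.05 are called. The tests set the difference of 2 group means against the spread between tumours within groups, estimated for each gene over all 4 groups together. In stable tumours, 10 of 10 members were higher than in controls, where 41.8% of all tested genes were called (22.2% higher, 19.6% lower). The median log2 fold change of the members was 1.16, against 0.02 over all genes. The ranges of the 2 groups did not overlap for 7 of the 10 members, and for 35.5% of all genes. In non-responders, 4 of 10 members were higher than in controls, Mmp12, Mmp14, Mmp19 and Timp3, against 13.9% of all genes called (10.6% higher, 3.29% lower). The member median was 0.87, against 0.04 over all genes. In responders, 6 of 10 members were higher than in controls, all of them proteases. Of all genes, 65.0% were called there in either direction (36.1% higher, 28.9% lower). The median of the members was 0.86, against 0.16 over all genes, with 9 of 10 log2 fold changes positive. The 3 inhibitors had log2 fold changes of 0.43 (Timp1), -0.06 (Timp2) and 0.30 (Timp3) there, and were not called. When the percentage of protein-coding counts entered the fit as a covariate, 7 members and 8171 of 18031 genes were called. The added member was Timp1 (1.01, adjusted p = 0.0299, edgeR). These comparisons share the same 5 controls.

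Between outcomes, stable tumours had 4 of 10 members above non-responders, Mmp2, Mmp3, Mmp13 and Mmp19, with 14.9% of all genes called (7.08% higher, 7.86% lower). All 10 log2 fold changes were positive in that comparison, with a median of 0.61 against -0.02 over all genes. Responders had 2 of 10 members above non-responders, Mmp13 and Mmp19, and none below, while 48.9% of all genes were called (25.2% higher, 23.8% lower). Responders had 4 of 10 members below stable tumours, Mmp2, Mmp3, Mmp14 and Timp2, and none above, while 38.2% of all genes were called (20.5% higher, 17.8% lower). The 10 fold changes were negative there, with a median of -0.54 against 0.01 over all genes. For 0 of 10 members did the ranges of 2 outcome groups separate. Among all genes the ranges separated for 5.01% between responders and non-responders, 5.01% between stable tumours and non-responders and 0.715% between responders and stable tumours. Responders and controls separated for 3 members (Mmp12, Mmp13 and Mmp19) and for 30.0% of all genes.

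**Figure D2:**
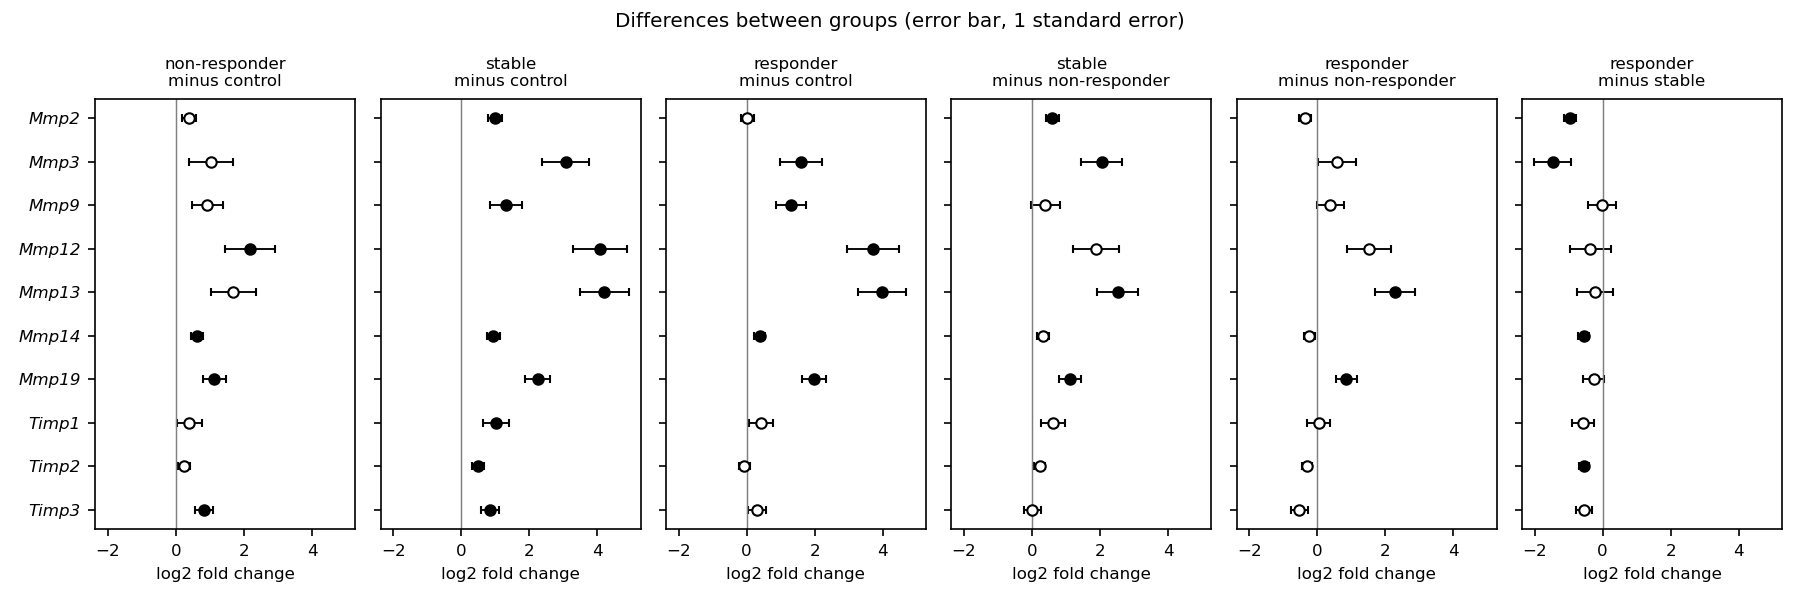
Log2 fold change of each member (horizontal axis) in the 6 comparisons, with 1 standard error, from the edgeR fit. Filled points passed an adjusted p of 0.05, and open points did not. All 10 points are filled for stable minus control, and the 4 filled points for responder minus stable lie left of 0.

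Responder and stable libraries differed in composition as well as in outcome. When the share of protein-coding counts was added as a covariate, 0 of 10 members and 0 of 18031 genes were called for responder minus stable by edgeR, with 1 member and 2296 genes under an unadjusted p of 0.05. Mmp2 was then at -0.66 (SE 0.20, adjusted p = 0.328), Mmp3 at -0.56 (SE 0.59, adjusted p = 0.695), Mmp14 at -0.24 (SE 0.17, adjusted p = 0.548) and Timp2 at -0.23 (SE 0.17, adjusted p = 0.545). DESeq2, without the covariate, called 4 members. Responder 5, whose share of 87.0% was like that of the stable tumours, lay within the stable range for all 4 called members. It had 469 CPM of Mmp2 (stable range 418 to 711), 362 CPM of Mmp14 (331 to 430), 328 CPM of Timp2 (325 to 393) and 214 CPM of Mmp3 (86.0 to 423). Responders with lower shares reached the stable range too, responder 2 (72.7%) for Mmp3 at 239 CPM and responder 3 (74.3%) for Timp2 at 340 CPM. Without responders 1 and 4, the 2 with under 60% protein-coding counts, 3 members remained called, and Mmp3 was at -1.16 (adjusted p = 0.117, edgeR). The part of library composition in these differences cannot be told apart from outcome in 7 of the 8 responders.

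**Figure D3:**
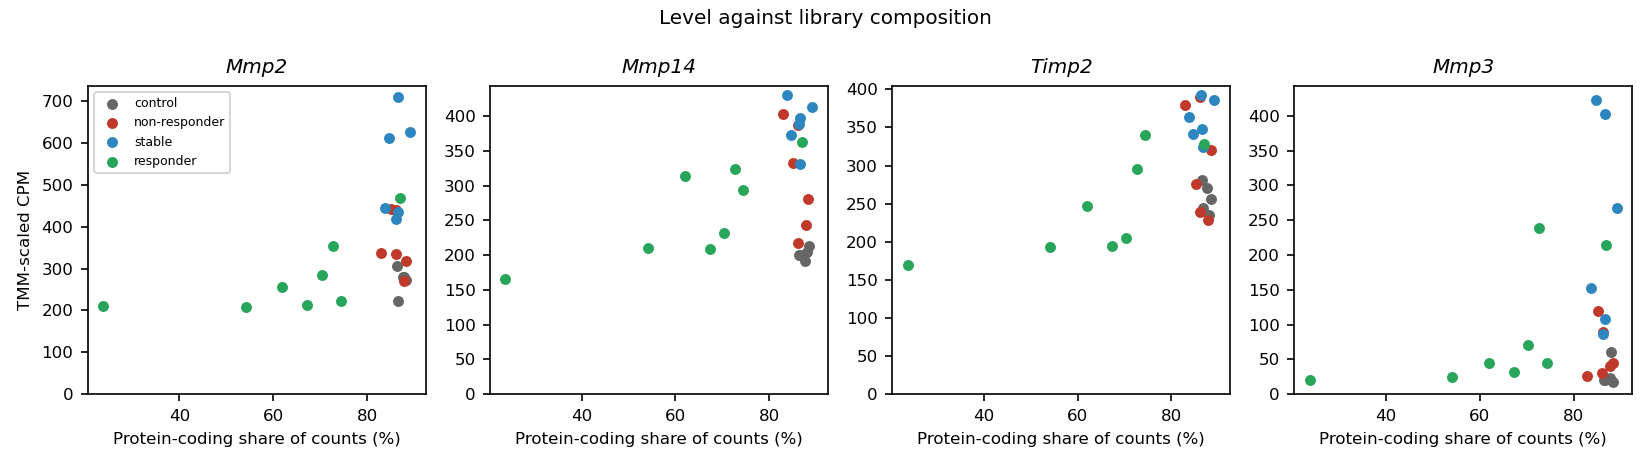
Level in CPM (vertical axis) of the 4 members called for responder minus stable against the protein-coding share of the library's counts (horizontal axis), 1 point per tumour. All responders but 1 lie left of every other tumour, and the responder at 87.0% lies within the range of the stable tumours in each panel.

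Markers of the cell types that can make these proteins differed between the groups as well. Their called counts stand beside the shares of all genes called. These were 41.8% for stable minus control, 65.0% for responder minus control and 13.9% for non-responder minus control. Between outcomes they were 38.2% for responder minus stable, 48.9% for responder minus non-responder and 14.9% for stable minus non-responder. The 8 macrophage markers summed to 608 to 1026 CPM in controls, to 801 to 2474 CPM in tumours that progressed, to 2214 to 3461 CPM in stable tumours and to 1029 to 3064 CPM in responders. Of these 8, 7 were higher in stable tumours than in controls, 7 in responders and 5 in non-responders. Between responders and stable tumours, 6 were lower in responders and 1 was higher. The 7 neutrophil markers summed to 2.83 to 5.10 CPM (controls), 3.61 to 34.1 CPM (non-responders), 27.9 to 59.3 CPM (stable) and 30.2 to 68.6 CPM (responders). Ly6g, a defining neutrophil gene, was at 0 in all 5 controls. Of the 5 neutrophil markers tested, 3 were higher in stable tumours than in controls, 5 in responders and 1 in non-responders. The 8 fibroblast markers summed to 3387 to 6375 CPM (controls), 6108 to 13951 CPM (non-responders), 7690 to 15608 CPM (stable) and 7196 to 16172 CPM (responders). Of them, 7 were higher in stable tumours than in controls, 6 in non-responders and 5 in responders, the last near the share of all genes. The 6 endothelial markers summed to 142 to 212 CPM (controls), 163 to 314 CPM (non-responders), 101 to 178 CPM (stable) and 74.6 to 132 CPM (responders), and 5 were lower in responders than in non-responders. The 6 T cell markers summed to 7.34 to 22.8 CPM (controls), 19.0 to 166 CPM (non-responders), 115 to 181 CPM (stable) and 71.6 to 201 CPM (responders), and all 6 were higher in each outcome than in controls. Of the 7 melanocyte markers, 7 were lower in responders and in stable tumours than in non-responders. The 5 keratinocyte markers summed to 1.93 to 1254 CPM and the 5 skeletal muscle markers to 45.3 to 1229 CPM over the 25 tumours, with overlapping ranges in all groups. The part of each cell type in the member differences was not tested.

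**Figure D4:**
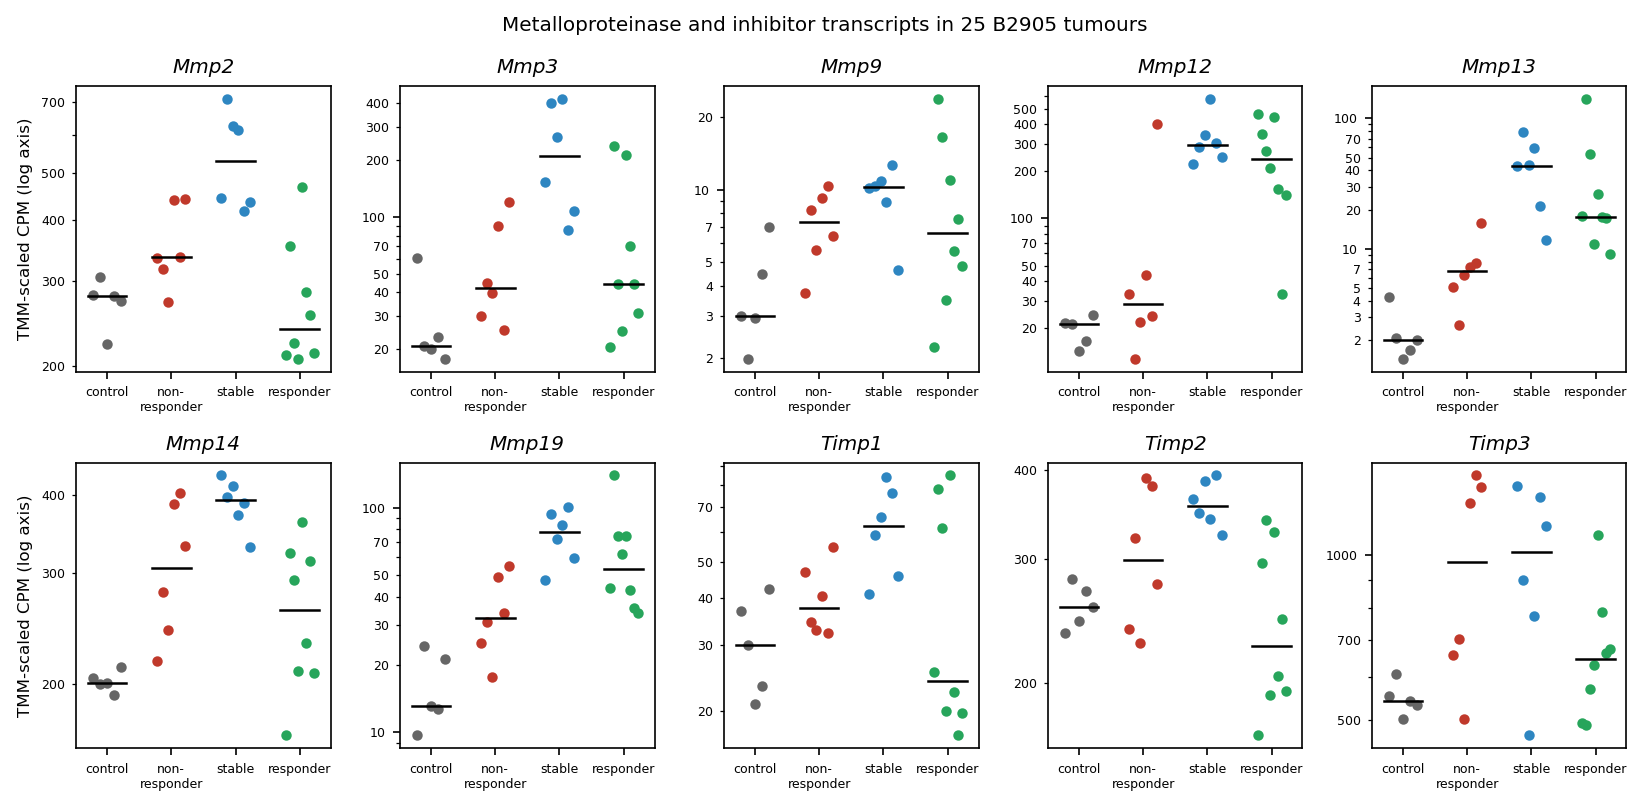
Level of each member in CPM after TMM scaling (vertical axis, log scale) in each of the 25 tumours by group, with the group median as a line. Mmp12 and Mmp13 show the widest span between controls and stable or responding tumours, and non-responder 6 stands with the latter for Mmp12.

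Some calls also depended on the settings of the fit, given here with adjusted p from edgeR unless named. With no low-count filter, 4 members lost their call for stable minus control: Mmp9 (1.18, adjusted p = 0.0633), Timp1 (0.88, adjusted p = 0.114), Timp2 (0.34, adjusted p = 0.195) and Timp3 (0.69, adjusted p = 0.0531). For stable minus non-responder, Mmp2 (0.56), Mmp3 (2.00) and Mmp19 (1.07) lost theirs (adjusted p of 0.0545 to 0.0912). All 4 calls of non-responder minus control were lost there (adjusted p of 0.0857 to 0.122), as were Mmp19 in responder minus non-responder (0.77, adjusted p = 0.0708), Mmp3 in responder minus stable (adjusted p = 0.0794) and Mmp3 (1.42, adjusted p = 0.0934) and Mmp14 (0.21, adjusted p = 0.357) in responder minus control. When only the 2 groups in question were fitted, Mmp3, Mmp9 (1.19) and Mmp14 (0.29) were not called for responder minus control (adjusted p of 0.0568 to 0.158). Mmp12, Mmp19 and Timp3 were not called for non-responder minus control in that fit (adjusted p of 0.0544 to 0.118), and in limma on log2(RPKM + 1) they stood at 0.98, 0.70 and 0.75 (adjusted p of 0.0531 to 0.278). Mmp12 was not called there with RLE scaling (2.13, adjusted p = 0.053) or the covariate (adjusted p = 0.0512) either. Mmp3 in responder minus control stood at 1.19 in limma on log2(RPKM + 1) (adjusted p = 0.0505).

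Mmp13, interstitial collagenase of the mouse (chr9:7272514-7283331, plus strand), had the steepest gradient from a very low base. Its level was 4.33, 2.10, 1.45, 1.70 and 2.02 CPM in controls 1 to 5. Non-responders ranged from 2.64 to 15.7 CPM (median 6.82), stable tumours from 11.6 to 78.8 (median 43.3) and responders from 9.11 to 141 (median 17.7). All stable tumours and responders lay above all controls, and non-responder 6 alone among non-responders reached the range of both. Its log2 fold change was 4.20 in stable tumours (SE 0.72, adjusted p = 5.3e-05, edgeR) and 3.98 in responders over controls (SE 0.70, adjusted p = 3.77e-05, edgeR). It was also higher than in non-responders, by 2.52 in stable tumours (SE 0.61, adjusted p = 0.00897, edgeR) and by 2.29 in responders (SE 0.59, adjusted p = 0.00326, edgeR). Responder 2 held 141 CPM, and without it the responder values were 1.55 over non-responders and 3.24 over controls, both still called. Non-responders over controls gave 1.69 (SE 0.65, adjusted p = 0.0869, edgeR) and were not called, but were in DESeq2 (1.65, adjusted p = 0.0306) and when only those 2 groups were fitted (1.66, adjusted p = 0.0393).

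Mmp12 (chr9:7344381-7369499, plus strand) encodes the elastase of macrophages. Controls 1 to 5 held 21.6, 21.3, 14.3, 16.5 and 24.4 CPM. Stable tumours ranged from 223 to 576 CPM (median 294) and responders from 33.1 to 460 CPM (median 239). All of both groups lay above all controls, with responder 7 at 33.1 CPM and every other responder at 140 CPM or more. The log2 fold change over controls was 4.07 in stable tumours (SE 0.80, adjusted p = 0.000247, edgeR) and 3.71 in responders (SE 0.77, adjusted p = 0.00024, edgeR).

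In non-responders, Mmp12 turned on 1 tumour. Non-responder 6 held 399 CPM, and the other 5 held 12.8 to 43.8 CPM, overlapping the controls. Non-responders over controls gave 2.18 (SE 0.73, adjusted p = 0.0481, edgeR), which became 0.46 (adjusted p = 0.525) without non-responder 6. That call was also lost without non-responder 4 or any 1 control (2.09 to 2.32, adjusted p of 0.0565 to 0.111). With all tumours, neither responders (1.52, SE 0.64, adjusted p = 0.0515, edgeR) nor stable tumours (1.89, SE 0.67, adjusted p = 0.061, edgeR) were called over non-responders. Without non-responder 6 both were, at 3.25 (adjusted p = 3.02e-05) and 3.61 (adjusted p = 0.000108). Responder minus non-responder was also called without responder 7 (1.70, adjusted p = 0.0276) and with all tumours in DESeq2 (1.56, adjusted p = 0.0235) and limma on log2(RPKM + 1) (2.22, adjusted p = 0.00133). Stable minus non-responder was called in those fits too (1.90, adjusted p = 0.0238, and 2.68, adjusted p = 0.00247). Responders minus stable tumours gave -0.36 (SE 0.61, adjusted p = 0.657, edgeR).

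Mmp3, stromelysin-1 (chr9:7445822-7455975, plus strand), cuts a broad range of matrix proteins and activates other proenzymes. The 5 controls held 60.6, 20.9, 20.0, 23.1 and 17.8 CPM. Non-responders ranged from 25.3 to 120 CPM (median 42.2), stable tumours from 86.0 to 423 (median 210) and responders from 20.5 to 239 (median 44.3). All stable tumours lay above all controls, and 6 of the 8 responders lay below all stable tumours. The exceptions were responder 2 at 239 CPM and responder 5 at 214 CPM. Stable tumours were higher than controls by 3.07 (SE 0.69, adjusted p = 0.000911, edgeR) and higher than non-responders by 2.04 (SE 0.61, adjusted p = 0.0285, edgeR). Responders were lower than stable tumours by -1.47 (SE 0.55, adjusted p = 0.0394, edgeR) and higher than controls by 1.60 (SE 0.62, adjusted p = 0.0282, edgeR).

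Apart from stable minus control, the Mmp3 calls each depended on single tumours. Stable minus non-responder was lost when stable 2, 3 or 4, or else non-responder 1, 2, 3 or 5, was left out (1.80 to 2.01, adjusted p of 0.0553 to 0.0706). Responder minus stable did not hold when responder 1, 3, 4, 6, 7 or 8, or else stable 2, 3 or 4, was left out (-1.44 to -1.23, adjusted p of 0.0612 to 0.103). Responder minus control was lost without responder 2 or 5 or control 2, 3, 4 or 5 (1.18 to 1.53, adjusted p of 0.0608 to 0.0777). All 3 chromosome 9 genes were called in stable tumours over controls, while 8 of 8 responders exceeded the highest control for Mmp12 and Mmp13 and 3 of 8 did so for Mmp3. The count for Mmp3 rests on control 1 at 60.6 CPM. Against the next highest control, at 23.1 CPM, responder 1 alone lay below, at 20.5 CPM.

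Mmp2 encodes gelatinase A (chr8:92827291-92853420, plus strand), and Mmp14 encodes the membrane-anchored protease that activates it. Mmp2 stood at 281, 306, 222, 279 and 273 CPM in controls 1 to 5. Non-responders ranged from 271 to 442 CPM (median 335), stable tumours from 418 to 711 (median 529) and responders from 207 to 469 (median 239). All stable tumours lay above all controls, and responder 5 alone reached the stable range. Mmp2 was higher in stable tumours than in controls by 0.99 (SE 0.21, adjusted p = 0.000395, edgeR) and than in non-responders by 0.60 (SE 0.19, adjusted p = 0.0373, edgeR). It was lower in responders than in stable tumours by -0.97 (SE 0.18, adjusted p = 0.00181, edgeR). Responders over controls gave 0.03 (SE 0.19, adjusted p = 0.913, edgeR), and the sign of that value differed between scalings. The difference from non-responders was lost when stable 2, 3 or 4, or else non-responder 1, 2, 3 or 5, was left out (0.51 to 0.58, adjusted p of 0.063 to 0.0978). Responders against non-responders gave -0.37 (adjusted p = 0.0915, edgeR), and passed without responder 5 (-0.52, adjusted p = 0.00713).

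Mmp14 (chr14:54431612-54445364, plus strand) was the least variable protease in controls, at 204, 200, 201, 192 and 213 CPM. Non-responders ranged from 217 to 403 CPM (median 306), stable tumours from 331 to 430 (median 393) and responders from 165 to 362 (median 263). All non-responders and all stable tumours lay above all controls, and Mmp14 was the only member whose non-responder and control ranges did not overlap, as for 4.08% of all genes. It was higher than in controls in stable tumours by 0.95 (SE 0.18, adjusted p = 0.000156, edgeR), in non-responders by 0.62 (SE 0.18, adjusted p = 0.0205, edgeR) and in responders by 0.39 (SE 0.17, adjusted p = 0.0468, edgeR). It was lower in responders than in stable tumours by -0.56 (SE 0.16, adjusted p = 0.00961, edgeR). The non-responder call was lost without non-responder 4 or 5 or control 4 (0.53 to 0.60, adjusted p of 0.0585 to 0.0631). The responder call over controls was lost without responder 2, 3, 5 or 7 or any 1 control (0.31 to 0.40, adjusted p of 0.0686 to 0.0966), and with RLE scaling (0.35, adjusted p = 0.0614).

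Mmp9, gelatinase B (chr2:164940780-164955850, plus strand), is a product of neutrophils, macrophages and other cells, and it was scarce in these tumours. In controls 1 to 5 it stood at 3.00, 1.99, 2.93, 4.47 and 6.98 CPM. Non-responders ranged from 3.73 to 10.4 CPM (median 7.34), stable tumours from 4.67 to 12.6 (median 10.3) and responders from 2.23 to 23.8 (median 6.58). Every pair of groups overlapped, and responders spanned the widest range, with 23.8 CPM in responder 2 and 16.5 in responder 3. It was higher than in controls in stable tumours by 1.31 (SE 0.46, adjusted p = 0.0242, edgeR) and in responders by 1.29 (SE 0.44, adjusted p = 0.0132, edgeR). The stable call was lost without control 1, 2 or 3 (1.14 to 1.23, adjusted p of 0.0552 to 0.0666). No difference between outcomes was called, and responders minus stable tumours gave -0.02 (SE 0.40, adjusted p = 0.976, edgeR).

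Mmp19 (chr10:128790910-128800824, plus strand) encodes a metalloproteinase of myeloid and stromal cells that acts on basement membrane proteins. The levels in controls 1 to 5 were 9.70, 24.1, 13.1, 12.7 and 21.1 CPM. Non-responders ranged from 17.6 to 54.9 CPM (median 32.4), stable tumours from 47.7 to 101 (median 77.8) and responders from 33.9 to 139 (median 53.1). All stable tumours and responders lay above all controls, and 5 of the 6 non-responders did. It was called over controls in all 3 outcomes, at 2.24 in stable tumours (SE 0.36, adjusted p = 2.58e-05, edgeR), 1.98 in responders (SE 0.35, adjusted p = 3.54e-05, edgeR) and 1.13 in non-responders (SE 0.35, adjusted p = 0.0306, edgeR). It was higher than in non-responders by 1.11 in stable tumours (SE 0.33, adjusted p = 0.0245, edgeR) and by 0.85 in responders (SE 0.31, adjusted p = 0.0266, edgeR).

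The 3 Mmp19 calls that involve non-responders each depended on single tumours. The responder call was lost without responder 2 (0.58, adjusted p = 0.0805) or without non-responder 1, 2 or 3 (0.71 to 0.81, adjusted p of 0.0513 to 0.0713). It was also lost with all tumours when the protein-coding share was a covariate (1.15, adjusted p = 0.0518) and when only those 2 groups were fitted (0.85, adjusted p = 0.0501). The stable call did not hold when stable 2 or any 1 of non-responders 1, 2 and 3 was left out (0.97 to 1.08, adjusted p of 0.052 to 0.0665). The call over controls was lost without non-responder 4, 5 or 6 or control 1, 3 or 4 (0.96 to 1.14, adjusted p of 0.0508 to 0.0989). Mmp19 overlaps Tmem198b, on the opposite strand, whose mean level was 24.6 CPM (controls), 23.6 CPM (non-responders), 18.9 CPM (stable) and 26.3 CPM (responders). Whether strand was used in counting is not given in the sources used here, so reads of the overlap cannot be assigned with certainty. The ratio of CPM to RPKM for Mmp19 varied 1.94-fold over the tumours, against 1.18-fold to 1.39-fold for the other members.

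Timp1 (chrX:20870166-20874735, plus strand) is the inflammation-responsive member of the family. In the controls, in order, it measured 37.0, 30.0, 20.9, 23.3 and 42.2 CPM. Non-responders ranged from 32.2 to 54.6 CPM (median 37.6), stable tumours from 41.0 to 83.8 (median 62.4) and responders from 17.3 to 84.8 (median 24.0). Responders lay in separate ranges, with responders 2, 3 and 5 at 78.1, 61.6 and 84.8 CPM and the other 5 at 17.3 to 25.4 CPM, within or below the range of the controls. It was higher in stable tumours than in controls by 1.01 (SE 0.38, adjusted p = 0.0326, edgeR), which failed without stable 3, 4 or 5 or control 2, 3 or 4 (0.89 to 1.00, adjusted p of 0.0505 to 0.0816). Responders against stable tumours gave -0.58 (adjusted p = 0.16, edgeR), and passed without responder 5 (-0.82, adjusted p = 0.0334).

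Timp2 encodes the inhibitor that joins MMP14 and the proenzyme of MMP2 in a complex (chr11:118301069-118355740, minus strand). The control tumours held 236, 281, 245, 270 and 256 CPM. Non-responders ranged from 228 to 391 CPM (median 299), stable tumours from 325 to 393 (median 356) and responders from 169 to 340 (median 226). All stable tumours lay above all controls, and responders 3 and 5 alone reached the stable range. It was higher in stable tumours than in controls by 0.48 (SE 0.17, adjusted p = 0.0281, edgeR) and lower in responders than in stable tumours by -0.54 (SE 0.15, adjusted p = 0.00991, edgeR). The former did not hold without stable 3 or 5 or control 1, 3 or 5 (0.45 to 0.48, adjusted p of 0.0504 to 0.0686). Responders against non-responders gave -0.31 (adjusted p = 0.094, edgeR), and passed without responder 3 or 5 (-0.39 and -0.38, adjusted p of 0.0331 and 0.0354).

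Timp3 (chr10:86300372-86349506, plus strand) encodes the inhibitor that is bound to the matrix and also blocks some ADAM proteases. Its level in controls 1 to 5 was 554, 606, 502, 542 and 534 CPM. Non-responders ranged from 502 to 1394 CPM (median 972), stable tumours from 470 to 1333 (median 1013) and responders from 491 to 1085 (median 646). Non-responders 4, 5 and 6 held 1240.5, 1394 and 1328 CPM and the other 3 held 502 to 704 CPM, so that every group overlapped the controls. It was higher than in controls in stable tumours by 0.84 (SE 0.27, adjusted p = 0.0156, edgeR) and in non-responders by 0.83 (SE 0.27, adjusted p = 0.0443, edgeR). The non-responder call was lost without any 1 control or without non-responder 4, 5 or 6 (0.69 to 0.86, adjusted p of 0.0627 to 0.125). Responders gave -0.53 against non-responders (adjusted p = 0.0699, edgeR), which passed without responder 5 or non-responder 1 or 3 (-0.66 to -0.62, adjusted p of 0.0197 to 0.0447). They gave -0.54 against stable tumours (adjusted p = 0.0761, edgeR), which passed without responder 5 or stable 3 (-0.67 and -0.68, adjusted p of 0.0202 and 0.027).

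Within groups, the members did not form a single unit. After the group means were removed, log2 CPM of Mmp14 and Timp2 had a Pearson correlation of 0.87 over the 25 tumours, Mmp2 and Mmp3 of 0.86, Mmp9 and Timp2 of 0.79, and Mmp9 and Mmp14 of 0.78. Mmp12 had correlations of 0.03 with Mmp9, 0.05 with Mmp14 and 0.02 with Timp2, but of 0.42 with Mmp2 and 0.41 with Mmp3. The lowest value was -0.06, between Mmp13 and Timp3. All pairs share libraries, depth and composition, and these values are descriptions of the tumours.

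**Figure D5:**
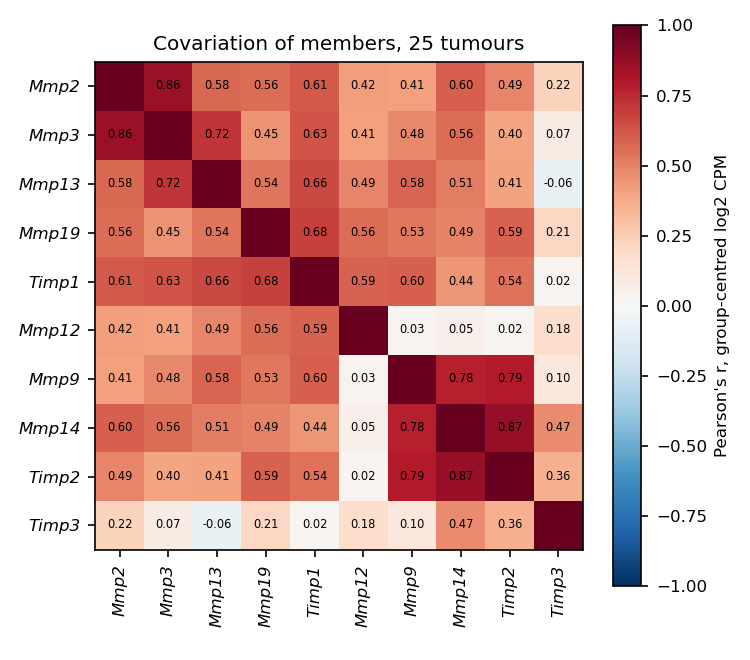
Pearson correlation of log2 CPM between members over the 25 tumours after removal of the group means, by colour and value. The values of 0.86 and 0.87 mark Mmp2 with Mmp3 and Mmp14 with Timp2, and Mmp12 is near 0 with Mmp9, Mmp14 and Timp2.

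The genes whose pattern was most like each member, by the same correlation among 13219 protein-coding genes, differed between members. For Mmp12 the closest was Chil3, a chitinase-like protein of macrophages, at 0.94. For Mmp2 it was Ctsk, the collagen-degrading cathepsin K, at 0.90. Mmp14 was closest to Calcrl (0.91), and Timp2 to Olfml2b (0.90) and Lamb1 (0.89), a laminin chain. Mmp19 was closest to Cd14 (0.85), a myeloid receptor for bacterial lipopolysaccharide, and Timp1 to Ctsl (0.93), cathepsin L. Mmp3 was closest to Zfp120 (0.88), Mmp9 to Tbx15 (0.86), Mmp13 to Stk17b (0.78) and Timp3 to Egflam (0.91). With the mean log2 CPM of the marker lists, Mmp14 had its highest correlation with fibroblast markers (0.81) and Mmp2 with macrophage markers (0.79). Mmp12 had 0.65 with macrophage markers, 0.71 with neutrophil markers and -0.28 with fibroblast markers.

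Other genes of the same pathway were read from the fit, against the shares of all genes called, which were 41.8% for stable minus control, 48.9% for responder minus non-responder, 38.2% for responder minus stable and 14.9% for stable minus non-responder. Of 17 other metalloproteinases and Timp4, 11 were tested, and in stable tumours 5 were higher and 3 lower than in controls (72.7% called). Mmp25, a membrane protease of neutrophils, was at 19.1 ± 3.44 CPM in stable tumours and 2.07 ± 1.39 CPM in controls (log2 fold change 3.22). Mmp8, the neutrophil collagenase, was higher by 2.64 from a level of 0.324 ± 0.112 CPM. Mmp15, a membrane protease, went the other way at -0.96. Responders over non-responders had 2 higher, Mmp11 (1.00) and Mmp28 (0.87), and 1 lower, Mmp15 (-0.98).

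Plasminogen activation, which yields plasmin for the activation of proenzymes, had 5 of 8 tested genes higher and 1 lower in stable tumours than in controls (75.0% called). Plau, urokinase, rose by 2.15 to 147 ± 64.4 CPM, and Plaur, its receptor, rose by 2.29. Plat, tissue plasminogen activator, was lower by -1.29. In responders minus stable tumours, 0 of 8 were higher and 2 lower, Plau (-1.30) and Plat (-0.76). Responders over non-responders had 2 higher, among them Plaur (1.31), and 1 lower, Plat (-1.04).

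Among activators and surface regulators, 4 of 13 tested genes were higher and 1 lower in stable tumours than in controls, and this share of 38.5% called is no higher than that of all genes. Thbs1, thrombospondin-1, rose by 3.15 to 3255 ± 792 CPM, and Bsg, basigin or inducer of metalloproteinases, was lower at -1.46. Furin, which cuts the propeptide of MMP14, was higher than in non-responders in both responders (0.88) and stable tumours (0.82). Reck, a membrane-bound inhibitor of metalloproteinases, was lower in responders than in non-responders (-0.44).

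The related ADAM and ADAMTS proteases, only some of which are also targets of TIMP3, had 8 of 16 higher and 2 lower in stable tumours than in controls (62.5% called). Adam8, a protease of myeloid cells, rose by 3.17 and Adamts15 by 2.44, while Adam12 was lower by -2.44 and Adamts9 by -1.52. In responders minus non-responders, 5 were higher and 4 lower, a share of 56.2% called near the 48.9% of all genes, with Adam8 at 1.80 and Adam12 at -1.66. Of 17 non-collagen and basement membrane substrates, 0 were higher and 11 lower in responders than in non-responders by edgeR (64.7% called), among them Vcan, versican (-1.06), and Nid1, nidogen-1 (-0.88). In stable minus non-responder tumours, 1 was higher (Bgn, biglycan, 0.62) and 1 lower (Eln, elastin, -1.41).

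Of 18 transcription factors and cytokines linked to the induction of metalloproteinases, 17 were tested. In stable tumours 9 were higher and 3 lower than in controls (70.6% called). Il1b rose by 5.36, from 1.00 ± 0.216 to 41.2 ± 12.7 CPM, and Il1a by 4.75, both encoding interleukin-1. Against non-responders, stable tumours had 6 higher and 0 lower by edgeR, including Il1b (2.14) and Osm, oncostatin M (1.60). That was 35.3% called, against 14.9% of all genes. Responders had 6 higher and 2 lower than non-responders, including Il1b (1.52) and Osm (0.96). Their share of 47.1% called was near the 48.9% of all genes. Of the 7 Fos and Jun genes, which encode the subunits of AP-1, 3 were higher in responders than in controls, Junb (1.12), Fosl2 (1.02) and Fosb (0.82), and 1 was lower, Fos (-1.10). In stable tumours 2 were higher than in controls, Junb (1.33) and Fosl2 (0.80), and in non-responders 1 was lower, Fos (-0.93). Against non-responders, Junb and Fosl2 were higher in responders (0.73 and 0.95) and in stable tumours (0.94 and 0.74), and Fosb was higher in responders (0.90). The shares of all genes called were 65.0% for responder minus control and 13.9% for non-responder minus control. The called counts of the 7 Fos and Jun genes were near or below the shares of all genes, except for stable minus non-responder. The Fos and Jun genes were singled out after their values were seen. Responders against stable tumours had 1 higher, Etv4 (0.42), and 0 lower.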

How the data were processed

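Strand-specific total RNA libraries were sequenced from 25 tumours, per the labels' protocols, while polyA RNA is the molecule labelled. The authors deposited expected counts for 55450 genes, made with no normalization by tools that the submitters' processing notes name as bcl2fastq 2.17, Trimmomatic, STAR 2.5.1 and RSEM 1.2.22, on build mm10. Of these values 5.64% were not whole, and all were rounded. All 55450 identifiers matched GENCODE M21 (GRCm38), from which coordinates were taken. The authors also deposited RPKM values for 19522 symbols, of which 18920 were used. For these, the gene lengths were not stated. Each of the 25 tumours matched itself best between the tables, over 3757 genes, and no replicates were duplicates (smallest chi-square per gene 17.1).

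Counts were filtered (filterByExpr), scaled by TMM and fitted with 4 group means in edgeR 4.0.16 (R 4.3.3), with robust two-sided quasi-likelihood F tests and Benjamini-Hochberg adjustment over 18031 genes. Standard errors come from the fold change and F. CPM are scaled by TMM, and correlations use log2 CPM with a prior count of 2. The scripts were tested on simulated data. Alternatives were RLE scaling, DESeq2 1.42.0, no filter, a stricter filter (at least 1 CPM in 8 tumours, mean count at least 50), a fit of the 2 groups compared, protein-coding genes only, the protein-coding share as a covariate, limma 3.58.1 on log2(RPKM + 1) or log2(RPKM + 0.1) with a minimum of 0.5 RPKM in 5 tumours or none, and each tumour left out. Leaving out responders under 60% protein-coding counts was added after the data were seen. The members, the 6 pathway lists and the 8 marker lists were chosen with earlier results of these data known. All members are named, with examples from up to the 2 highest and 2 lowest called genes of each list with a mean of at least 1 CPM, and the closest of 3 genes by correlation, with others given for Timp2. An item among the list genes is not reported here. Depth limits the lowest member most, since Mmp9 had 10 to 343 counts per tumour.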

Additional observations from a re-analysis of the deposited data

Results flagged for a closer look

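Of 40 groups of values (10 members in 4 groups), 6 held a tumour far above the others by Dixon's test at 95%. Its nominal rate of about 1 in 20 holds for normal values and independent groups. CPM without logs were used here and the members share tumours, so the rate for these values is not known. In controls, control 1 was the high tumour for Mmp3 (60.6 CPM, next highest 23.1) and for Mmp13 (4.33 CPM, next highest 2.10). In non-responders, tumour 6 held 399 CPM of Mmp12, with 43.8 CPM the next highest. Among stable tumours, tumour 4 held 576 CPM of Mmp12 and the next 342. Responder 2 was high for Mmp13 (141 CPM, next 53.2) and Mmp19 (139 CPM, next 74.7).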

How the results depend on the processing

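Stable minus control was the comparison in which the members' calls held best. All 10 were called in every alternative with all tumours except the fits with no low-count filter, which called 6 (edgeR) and 9 (limma on RPKM), and 7 to 10 were called with single tumours left out. For responder minus non-responder, the count of 2 members fell to 1 with no filter, in a fit of only those 2 groups and with the protein-coding share as covariate, was 3 with RLE, DESeq2, the stricter filter, protein-coding genes only and each of the 3 limma fits, and ranged from 1 to 5 with single tumours left out. The 8823 genes called there became 1810 with the covariate (7255 to 10052 with single tumours left out). For responder minus stable, the 4 members became 0 with the covariate and 3 to 6 with single tumours left out, and the 6891 genes became 0 with the covariate, 4018 without the responders under 60% and 5131 to 8862 with single tumours left out. For stable minus non-responder, the 4 members became 1 with no filter and 1 to 5 with single tumours left out, and the 2693 genes 1470 to 3804. For responder minus control, the 6 members became 7 with the covariate, 3 in a fit of only those groups and 4 with no filter. Genes called were 8171 of 18031, 10847 of 17132 and 12707 of 32985 in those alternatives, in that order. With single tumours left out, 4 to 6 members were called there, and the 11723 genes became 10978 to 12223. For stable minus control, the 7531 genes became 6657 to 7304. For non-responder minus control, the 4 members became 0 with no filter (5 under an unadjusted p of 0.05, and 5 called by DESeq2), 2 in a fit of only those groups, 1 in limma on log2(RPKM + 1) with or without filter, 2 on log2(RPKM + 0.1) and 0 to 4 with single tumours left out. The 2500 genes became 1559 in the fit of those groups and 1570 to 4237 with single tumours left out. With no filter, edgeR tested 32985 genes. It called 8360 for responder minus non-responder, 1906 for stable minus non-responder, 7872 for stable minus control and 1934 for non-responder minus control. In the fit of only responders and non-responders, 6708 of 16858 genes were called.

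Members whose log2 fold change turned sign were all uncalled. For responder minus non-responder, Mmp14 became 0.083 with the covariate, and Timp1 -0.030 with no filter, -0.16 on log2(RPKM + 1) with or without filter and -0.17 on log2(RPKM + 0.1). For responder minus stable, Mmp9 became 0.060 with the stricter filter, 0.019 in the fit of those groups, 0.035 with protein-coding genes only, 0.87 with the covariate and 0.26 without the responders under 60%. Mmp13 became 0.36 with the covariate and 0.037 without those responders, and Mmp19 became 0.043 with the covariate. For stable minus non-responder, Timp3 became -0.034 with no filter, -0.0028 with protein-coding genes only and -0.049 in each limma fit. For responder minus control, Mmp2 became -0.0059 with RLE, -0.0057 with DESeq2, -0.15 with no filter and -0.071 in the fit of those groups, and Timp2 became 0.063 with the stricter filter, 0.27 with the covariate and 0.072 without those responders. With single tumours left out, Mmp13 ranged from -0.97 to 0.040 and Mmp9 from -0.37 to 0.13 for responder minus stable, Mmp2 from -0.12 to 0.079 for responder minus control, Timp1 from -0.20 to 0.16 for responder minus non-responder and Timp3 from -0.12 to 0.15 for stable minus non-responder. Over the members in all comparisons, alternatives with all tumours or without the responders under 60% gave 43 lost calls and 15 gained ones, and single tumours left out gave 84 and 12. The cause was not tested for any of these changes. No paired analysis was possible because replicate numbers were given in accession order and the labels tie no tumours across groups.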
